A study of Mus musculus with 12 samples.

Results

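A pair of short hairpin RNAs (shRNAs) against the same gene, Nizp1, was compared in cultured mouse cells that express the leukaemia fusion NUP98-NSD1. The labels call the cells bone marrow progenitors. The comparison uses 6 of the series' 12 libraries, 3 with shNizp1#2 and 3 with shNizp1#1, chosen by their labels, and every difference below is shNizp1#2 minus shNizp1#1 unless another is named. All 6 carry NUP98-NSD1 from an MSCV retroviral vector under geneticin selection, and the shRNA is expressed constitutively from the lentiviral vector pLKO.1-puro. A further 3 libraries with NUP98-NSD1 and a control shRNA (sh#ctrl) show on which side of the control each shRNA lies, and 3 with the MSCV vector and sh#ctrl entered the fit only. The cells came from c-Kit+/Sca-1+/Lin- bone marrow, a fraction rich in stem and progenitor cells, and grew in RPMI with SCF at 100 ng/ml and with 20 ng/ml each of the cytokines IL-3 and IL-6. The series describes independent experiments. Libraries of all groups that share a replicate number are called an experiment here.

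An shRNA is processed to a small interfering RNA whose guide strand directs the RNA-induced silencing complex to complementary messenger RNA. Besides its target, a guide can repress other transcripts that pair with its seed, the bases near its 5′ end, in the manner of a microRNA. Each hairpin has a guide of its own, so another hairpin with the same target is a standard control in knockdown experiments. Nizp1 (symbol Zkscan17 in the file) is a SCAN and KRAB domain zinc finger protein that was found as a binding partner of the histone H3 lysine 36 methyltransferase NSD1. The hairpin sequences were not used here, so no seed match was examined.

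RNA was read as counts of single 75 nt reads per gene. Totals ran from 3586538 to 6842589 counts in the 3 shNizp1#1 libraries and from 6376573 to 6661275 in the 3 shNizp1#2 libraries. Levels are given as CPM, the count of a gene scaled to a common library total over the tested genes with TMM factors, always in the order of experiments 1, 2 and 3, and 3 counts correspond to 0.417 to 0.837 CPM. Kit and Cd34 were present in all 6 libraries. Kit, the SCF receptor, was at 2699, 3105 and 2222 CPM with shNizp1#1 and 2899, 2743 and 2216 CPM with shNizp1#2. Kit is also a mast cell gene, so its level alone does not tell progenitors from mast cells. Cd34 was at 1419, 1140.1 and 1723 CPM and 1712, 1224 and 2022 CPM, and Ly6a, which encodes Sca-1, was lower at 69.7, 98.8 and 221 CPM and 111, 154 and 277 CPM. Cpa3, a mast cell carboxypeptidase, was far more abundant than these, at 25557, 20681 and 20071 CPM with shNizp1#1 and 26801, 19341 and 20451 CPM with shNizp1#2. The IgE receptor gene Fcer1a was also above Kit, Cd34 and Ly6a. It was at 5489, 5642 and 6178 CPM with shNizp1#1 and 4664, 3812 and 5425 CPM with shNizp1#2 (edgeR adjusted p = 0.134). None of Kit, Cd34, Ly6a and Cpa3 passed the test between the shRNAs (edgeR adjusted p = 0.94, 0.451, 0.756 and 0.997).

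Both shRNAs lowered their target. Zkscan17 (mm10, chr11:59485520-59506644, minus strand, protein-coding) was at 62.6, 49.4 and 61.8 CPM with the control shRNA, at 35, 26.2 and 30.4 CPM with shNizp1#1 and at 29, 17.6 and 27 CPM with shNizp1#2. Every knockdown library lay below every control library, while the shNizp1#1 and shNizp1#2 libraries overlapped. Against the control the log2 fold change was -0.93 for shNizp1#1 (edgeR adjusted p = 0.00198) and -1.25 for shNizp1#2 (adjusted p = 2.90e-04). Within each of the 3 experiments the level was lower with shNizp1#2, yet the difference between the shRNAs did not pass the test, with a log2 fold change of -0.32 ± 0.13 (SE), an unadjusted 95% interval of -0.59 to -0.05 and an adjusted p of 0.23. Counts per gene do not separate the fusion transcript from the mouse genes Nup98 and Nsd1. Nup98 had a log2 fold change of -0.35 (adjusted p = 0.137) and Nsd1 of -0.35 (adjusted p = 0.357) between the shRNAs. The unadjusted 95% intervals were -0.59 to -0.11 and -0.71 to 0.01. Both genes were lower with shNizp1#2 in each of the 3 experiments. The groups did not overlap for Nsd1, at 807, 966 and 907 CPM with shNizp1#1 and 711, 598 and 791 CPM with shNizp1#2. The same held for 4.34% of all tested genes in the lower direction. With the control Nsd1 was at 788, 699 and 745 CPM. Against the control Nup98 had log2 fold changes of 0.32 for shNizp1#1 and -0.03 for shNizp1#2 (edgeR adjusted p = 0.233 and 0.948). Those of Nsd1 were 0.26 and -0.09 (adjusted p = 0.587 and 0.888).

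Beyond the target, the shRNAs differed in 284 of 11994 tested genes (2.37%) in edgeR's quasi-likelihood test with the experiment as a block, at a Benjamini-Hochberg adjusted p under 0.05. Of these, 214 (1.78% of tested genes) were higher with shNizp1#2 and 70 (0.584%) were lower. Most changes were small: the median log2 fold change was 0.61 among the higher genes and -0.57 among the lower, and 31 higher and 12 lower genes changed at least 2-fold. All 70 lower genes and 209 of the 214 higher genes had the direction of the fit in all 3 experiments. Of all tested genes 22.2% were higher and 20.6% lower with shNizp1#2 in all 3. The other 5 higher genes were S100a8 and Ngp, which had 1 and 2 counts with shNizp1#1 and 0 with shNizp1#2 in experiment 3, and Epx, Lcn2 and Camp, which had 0 counts in both libraries of it. The levels of the groups did not overlap for 145 of the higher and 42 of the lower genes, beside 4.87% of all tested genes in the higher and 4.34% in the lower direction. Before adjustment, 1779 genes had a p under 0.05. The called genes were more abundant than the average, with median levels of 72.0 CPM (higher) and 72.9 CPM (lower) against 33.0 CPM for all tested genes.

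The size of that list depends on how the experiments enter the fit. Without the block, 0 genes were higher and 1, Fuca2, was lower at the same threshold, and 609 had an unadjusted p under 0.05, so nearly all calls rest on the block. A blocked fit of the 6 libraries alone called 711 higher and 439 lower. Leaving out any single library left 59 to 117 higher and 10 to 27 lower calls, and leaving out experiment 1, 2 or 3 left 27, 129 or 10 higher and 4, 38 or 2 lower calls. The sign of each of the 284 differences stayed the same in every one of these fits. That was nearly set beforehand. The genes were called in these same libraries, and nearly all had the direction of the fit in all 3 experiments. Across the 11994 genes the log2 ratios of the separate experiments, which share no library, had a Pearson r of 0.340 (experiments 1 and 2), 0.211 (1 and 3) and 0.177 (2 and 3), given as a description.

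**Figure D1:**
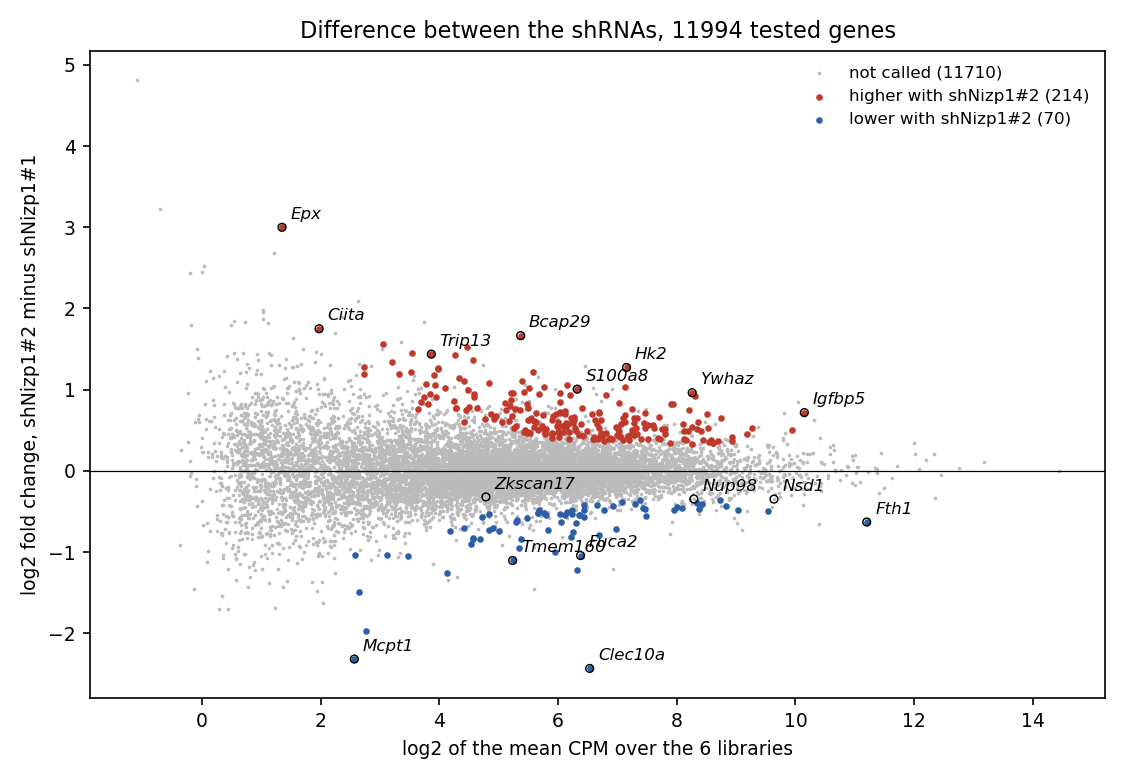
Difference between the shRNAs (y axis, log2 fold change, shNizp1#2 minus shNizp1#1) against the level of each gene (x axis, log2 of the mean CPM over the 6 libraries) for 11994 tested genes, with 214 called higher in red, 70 called lower in blue and circled genes named. The target Zkscan17, Nup98 and Nsd1 lie among the grey genes that were not called.

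A small set of genes was called in nearly every fit. Of the 284 calls, 51 stood when each of the 6 libraries was left out in turn, and 8 of these also stood without each experiment: Bcap29, Hk2, Ywhaz, Radx, Cd33, Plscr1 and Rab32, all higher with shNizp1#2, and Fuca2, which was lower. Ywhaz, Radx, Cd33, Plscr1 and Rab32 are named because they stood in those fits, after their values were seen. Fuca2 was also the gene that remained called in all 19 alternatives.

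Bcap29 (mm10, chr12:31590967-31634635, minus strand) encodes a membrane protein of the endoplasmic reticulum related to the export receptor BAP31. It was at 22.1, 12.8 and 24 CPM with shNizp1#1 and at 63.3, 49.2 and 76.6 CPM with shNizp1#2, beside 61.8, 52.6 and 77.3 CPM with the control shRNA. The shNizp1#1 libraries were low and did not overlap the others, whereas shNizp1#2 sat at the control level in each experiment. The difference was 1.67 ± 0.18 on the log2 scale (SE, edgeR adjusted p = 8.76e-04), with -1.69 for shNizp1#1 against the control (adjusted p = 0.001) and -0.02 for shNizp1#2 (adjusted p = 0.976). None of the other 24 tested genes of endoplasmic reticulum receptors, chaperones and stress was called, and the median log2 fold change over the 25 was 0.05.

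Hk2 (mm10, chr6:82725025-82774454, minus strand) encodes hexokinase 2, which phosphorylates glucose at the start of glycolysis. Its level was 86.1, 113 and 55.8 CPM with shNizp1#1 and 204, 239 and 157 CPM with shNizp1#2, a log2 fold change of 1.27 ± 0.14 (adjusted p = 0.00101). The control libraries lay between, at 135, 205 and 123 CPM, and in every experiment the order was shNizp1#1, control, shNizp1#2. Against the control, shNizp1#1 passed the test (-0.89, adjusted p = 0.00932) and shNizp1#2 did not (0.39, adjusted p = 0.317). Hk2 was the only one of 22 tested glycolysis and glucose transport genes that was called, beside a median of 0.03 over the list.

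Fuca2 (mm10, chr10:13501001-13519035, plus strand) encodes a secreted alpha-L-fucosidase, an enzyme that removes fucose from glycans. It stood at 116, 103 and 117 CPM with shNizp1#1 and at 53.3, 54.6 and 55.2 CPM with shNizp1#2, while the control shRNA gave 128, 112 and 120.1 CPM. All 3 shNizp1#2 libraries lay within a narrow band below every other library. The log2 fold change between the shRNAs was -1.04 ± 0.09 (adjusted p = 2.13e-04), and against the control it was -1.14 for shNizp1#2 (adjusted p = 6.21e-05) and -0.10 for shNizp1#1 (adjusted p = 0.735). Among 30 tested lysosomal glycosidase and cathepsin genes, 3 were called higher and Fuca2 alone lower, beside 1.78% and 0.584% of all tested genes. The higher ones were Ids, iduronate sulfatase (0.69, adjusted p = 0.00342), Ctsc, the cathepsin that activates granule proteases (0.53, adjusted p = 0.0438), and Glb1, beta-galactosidase (0.50, adjusted p = 0.00518). Glb1 was at 136, 118 and 121 CPM with shNizp1#1, 191, 171 and 168 CPM with shNizp1#2 and 208, 181 and 192 CPM with the control. The call of Ctsc was lost when any library was left out, and without experiment 1 or experiment 3 none of the 3 was called.

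**Figure D2:**
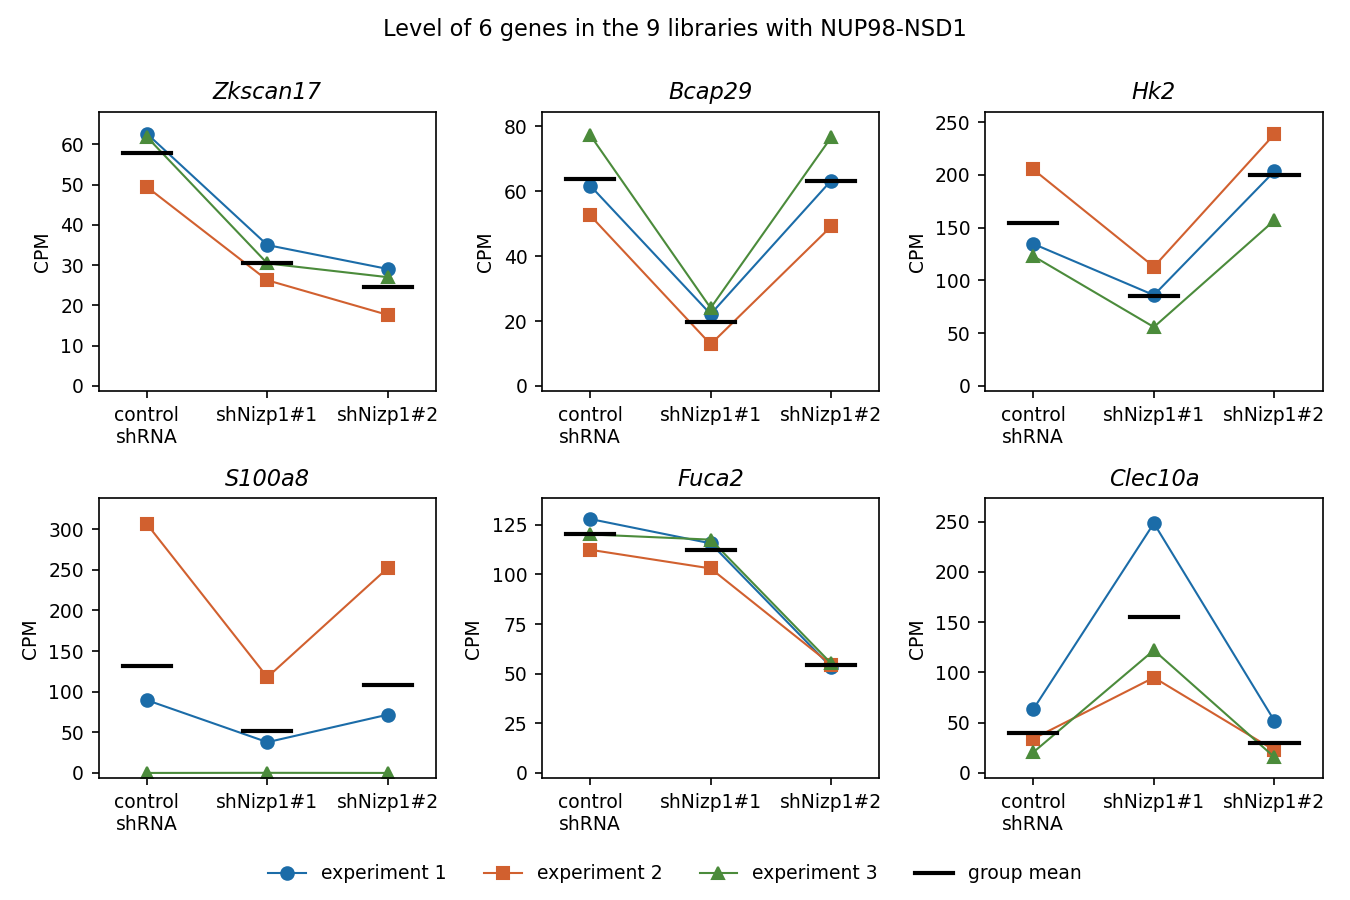
Levels (y axis, CPM, linear) of 6 genes in the 9 libraries with NUP98-NSD1, by shRNA (x axis), with lines joining the libraries of an experiment and black bars for group means. Bcap29 and Hk2 are lowest with shNizp1#1 in each experiment, Fuca2 is lowest with shNizp1#2, Clec10a is highest with shNizp1#1, and S100a8 is near 0 throughout experiment 3.

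Several adaptor, DNA-binding and trafficking genes followed the same order as Bcap29, low with shNizp1#1 and near the control with shNizp1#2. Ywhaz encodes 14-3-3 zeta, an adaptor that binds phosphorylated proteins. It was at 261, 167 and 202 CPM with shNizp1#1, 428, 356 and 426 CPM with shNizp1#2 and 403, 304 and 364 CPM with the control, a difference of 0.96 ± 0.10 between the shRNAs (adjusted p = 5.58e-04). The groups did not overlap. Its paralog Ywhae, 14-3-3 epsilon, differed the other way, at 642, 506 and 672 CPM with shNizp1#1 and 467, 345 and 498 CPM with shNizp1#2 (-0.48, adjusted p = 0.00691), beside 601, 481 and 658 CPM with the control. The remaining 4 tested 14-3-3 genes were not called.

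Radx encodes a single-stranded DNA-binding protein of replication forks. Its level was 47.1, 58.1 and 33.9 CPM with shNizp1#1, 105, 113 and 70.1 CPM with shNizp1#2 and 90.4, 109.8 and 58.3 CPM with the control (1.05 between the shRNAs, adjusted p = 5.58e-04). Plscr1, a phospholipid scramblase, was at 211, 140.4 and 169 CPM, 334, 281 and 294 CPM and 322, 248 and 239 CPM in the same order (0.82, adjusted p = 6.80e-04). Rab32 is a small GTPase of lysosome-related organelles, and its 3 shNizp1#1 libraries (37.4, 35.7 and 33.9 CPM) and 3 shNizp1#2 libraries (72.7, 72.5 and 73.1 CPM) were each tightly grouped and apart. The control libraries were at 65.7, 71.9 and 46.9 CPM, and the log2 fold change of Rab32 between the shRNAs was 1.03 (adjusted p = 0.00101). Cd33, a sialic acid-binding receptor of myeloid cells, was at 91.4, 111 and 70.4 CPM with shNizp1#1 and 192, 233 and 139.5 CPM with shNizp1#2 (1.04, adjusted p = 0.00142), with 182, 213 and 111 CPM in the control libraries.

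Trip13, an ATPase that remodels spindle checkpoint proteins, was at 7.38, 5.3 and 10.8 CPM with shNizp1#1 and 20.5, 14.4 and 28.9 CPM with shNizp1#2 (1.44 ± 0.18, adjusted p = 0.00107). With the control shRNA Trip13 was at 18.6, 21.1 and 36.5 CPM, and the log2 fold change against it was -1.69 for shNizp1#1 (adjusted p = 0.001) and -0.26 for shNizp1#2 (adjusted p = 0.565). It was the only called member of 26 mitosis and G2 phase genes, and none of 24 DNA replication and S phase genes was called by edgeR, DESeq2 or limma-voom (1 had an unadjusted p under 0.05). Ampd3, an AMP deaminase of purine metabolism, was at 6.66, 12.8 and 11.7 CPM with shNizp1#1 and 31.3, 22.9 and 29.6 CPM with shNizp1#2 (1.43 ± 0.22, adjusted p = 0.00343), and its control level was 24.7, 22.6 and 21.4 CPM. Zkscan1, a zinc finger gene of the same SCAN and KRAB class as the target, was at 28.8, 26.8 and 30.4 CPM with shNizp1#1 and 45.7, 44.8 and 46.7 CPM with shNizp1#2 (0.67, adjusted p = 0.01), beside 47.1, 45.7 and 40.8 CPM with the control. It was the only called gene of 14 tested in its list, which holds Zkscan17.

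Other genes were high with shNizp1#2 and alike in the control and shNizp1#1 libraries. Serpinb2, plasminogen activator inhibitor type 2, was at 41.9, 37.1 and 23.3 CPM with shNizp1#2, 13.6, 18.4 and 8.33 CPM with shNizp1#1 and 19.3, 22.7 and 7.26 CPM with the control. Its log2 fold change was 1.37 ± 0.20 between the shRNAs (adjusted p = 0.00298) and 1.13 for shNizp1#2 against the control (adjusted p = 0.0297). Bcl2, which blocks mitochondrial apoptosis, followed this order at 171, 194 and 139 CPM, 106, 114 and 99.6 CPM and 115, 132 and 87.9 CPM, and the shNizp1#2 libraries lay above the other 6 with NUP98-NSD1. The difference in Bcl2 was 0.65 between the shRNAs (adjusted p = 0.00358) and 0.59 for shNizp1#2 against the control (adjusted p = 0.0241). No other of the 11 tested genes in the BCL2 family list was called. The BCL2-like gene Bcl2l13, which is not in that list, was called as well. The antiproliferative gene Btg2 varied between experiments, at 12.6, 64.2 and 2.92 CPM with shNizp1#1 and 22.8, 176 and 6.75 CPM with shNizp1#2, and was higher with shNizp1#2 in each (1.22, adjusted p = 0.0102).

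Among the 12 largest differences in the same direction were genes of low level. Il13, a cytokine made by mast cells, was at 11.4, 5.58 and 2.78 CPM with shNizp1#1 and 22, 18.4 and 9.83 CPM with shNizp1#2 (1.45, adjusted p = 0.0121). Layn, a hyaluronan receptor, had a log2 fold change of 1.57, Fam151a of 1.52, and the amino acid transporter gene Slc6a19 of 1.34. Disp2, a gene of the dispatched family, had 1.27 and Plxna2, a semaphorin receptor, had 1.26. Ciita, the transcriptional activator of MHC class II genes, had the largest of the 12 (1.75 ± 0.41, adjusted p = 0.0367) on few counts, at 0.714, 3.07 and 1.25 CPM with shNizp1#1 and 2.61, 12.7 and 3.23 CPM with shNizp1#2. Its call was lost when any library was left out. No other of 9 tested dendritic cell and MHC class II genes was called, and the list had a median of 0.50 beside -0.0019 for all tested genes.

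**Figure D3:**
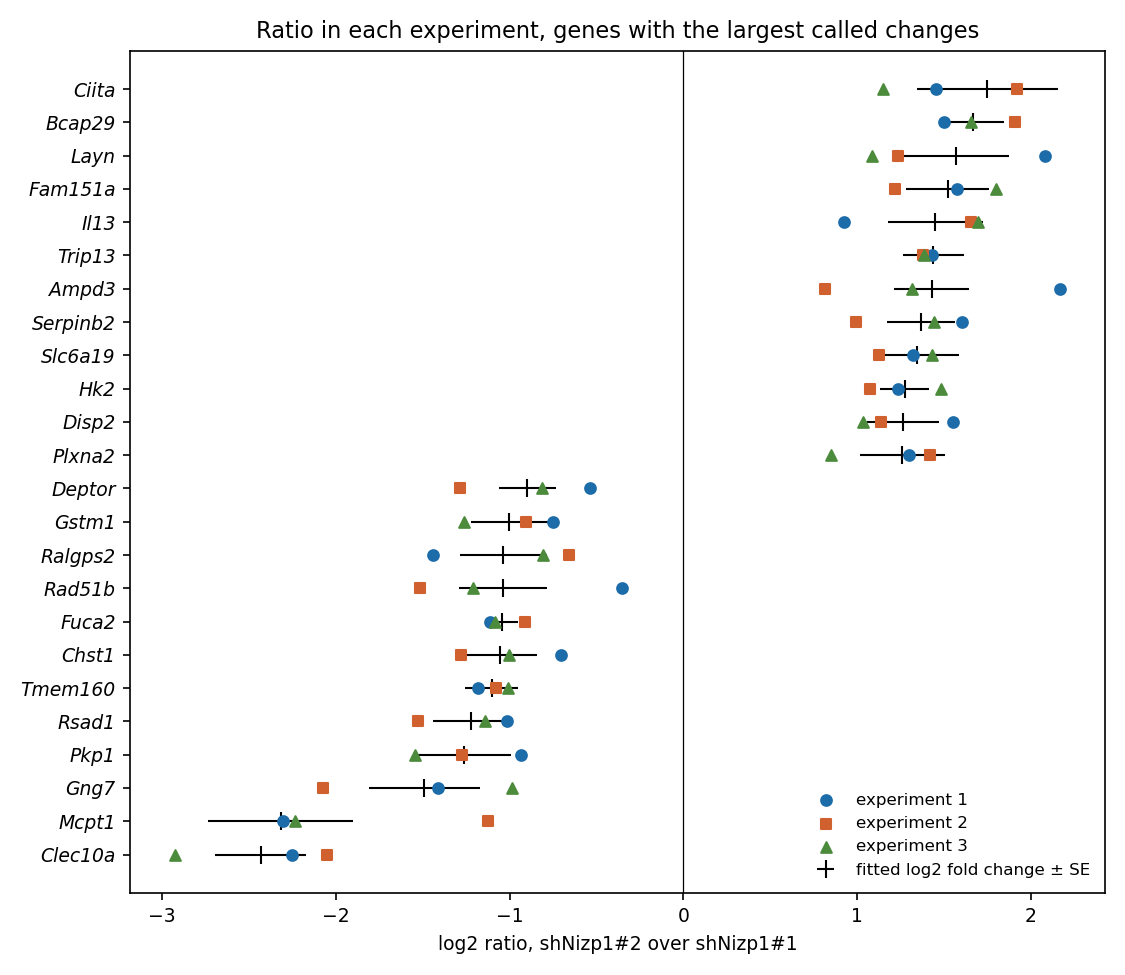
Log2 ratio of shNizp1#2 over shNizp1#1 (x axis) in each of 3 experiments (coloured symbols) and in the fit (black tick with its SE) for the 12 called genes with the largest change in each direction (y axis). The ratios all lie on the side of 0 of their gene's fitted change, which the choice of these genes required. Trip13, Fuca2 and Tmem160 have ratios close together.

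The lower genes include lectin, adhesion and mast cell genes. Clec10a (mm10, chr11:70166623-70170834, plus strand), a galactose-binding lectin of macrophages and dendritic cells, was at 248, 94.9 and 122 CPM with shNizp1#1 and 51.9, 22.6 and 15.7 CPM with shNizp1#2. The control was at 63.5, 34.1 and 20.6 CPM, and in each experiment shNizp1#1 was above and shNizp1#2 below it. The log2 fold change was -2.43 ± 0.26 between the shRNAs (adjusted p = 0.00304), 2.02 for shNizp1#1 against the control (adjusted p = 0.00857) and -0.42 for shNizp1#2 (adjusted p = 0.618). Of 12 tested C-type lectin genes no other was called. None of 21 monocyte and macrophage genes was called by edgeR, DESeq2 or limma-voom, and 0 had an unadjusted p under 0.05.

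Tmem160, a membrane protein gene, resembled Fuca2: 55.9, 38 and 59.99 CPM with shNizp1#1, 24.5, 17.8 and 29.6 CPM with shNizp1#2 and 69.2, 63.2 and 65.3 CPM with the control. Its difference was -1.10 ± 0.15 (adjusted p = 0.00217), with -1.48 for shNizp1#2 against the control (adjusted p = 3.51e-04) and -0.37 for shNizp1#1 (adjusted p = 0.272). Pkp1, a desmosome protein gene, was instead high with shNizp1#1, at 31.2, 36 and 5.0 CPM beside 16.1, 14.7 and 1.47 CPM with shNizp1#2 and 11.8, 5.59 and 0.981 CPM with the control (-1.26 between the shRNAs, adjusted p = 0.0235). Rsad1, a radical SAM domain gene, did likewise at 105, 68.4 and 159 CPM, 52, 23.5 and 71.9 CPM and 53.7, 19.2 and 50.04 CPM (-1.22, adjusted p = 0.0204). Deptor, an inhibitor of the kinase mTOR, was at 26.9, 38.2 and 25.6 CPM with shNizp1#1, 18.4, 15.5 and 14.4 CPM with shNizp1#2 and 18, 17.9 and 15.3 CPM with the control (-0.90, adjusted p = 0.0102). Chst1, a keratan sulfate sulfotransferase, was at 9.28, 22.3 and 13.9 CPM, 5.54, 8.97 and 6.75 CPM and 3.5, 6.34 and 5.49 CPM in that order (-1.05, adjusted p = 0.0176). For both, the 3 shNizp1#1 libraries lay above the other 6 with NUP98-NSD1.

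Mcpt1, a mast cell chymase, was at 3.09, 1.12 and 25.6 CPM with shNizp1#1 and 0.326, 0.309 and 5.14 CPM with shNizp1#2, mostly in experiment 3 (-2.32 ± 0.42, adjusted p = 0.01). It was the only called gene of 15 mast cell granule genes, whose median log2 fold change was 0.0011. Also lower with shNizp1#2 were Gng7, a G protein gamma subunit (-1.49), Ralgps2, an activator of Ral GTPases (-1.04), Rad51b, a homologous recombination gene (-1.04), and Gstm1, a glutathione transferase (-1.0). Tmem173, the DNA-sensing adaptor STING, was 46.2, 59.7 and 37.8 CPM with shNizp1#1, 28.9, 41.1 and 24.5 CPM with shNizp1#2 and 26.7, 40.6 and 25.1 CPM with the control (-0.61, adjusted p = 0.0132). It was the only called gene of 15 nucleic acid sensors, and edgeR called none of 26 interferon-stimulated genes (0 with an unadjusted p under 0.05) and none of 13 genes of the microRNA and small interfering RNA pathway (1). DESeq2 and limma-voom also called 0 in both lists.

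**Figure D4:**
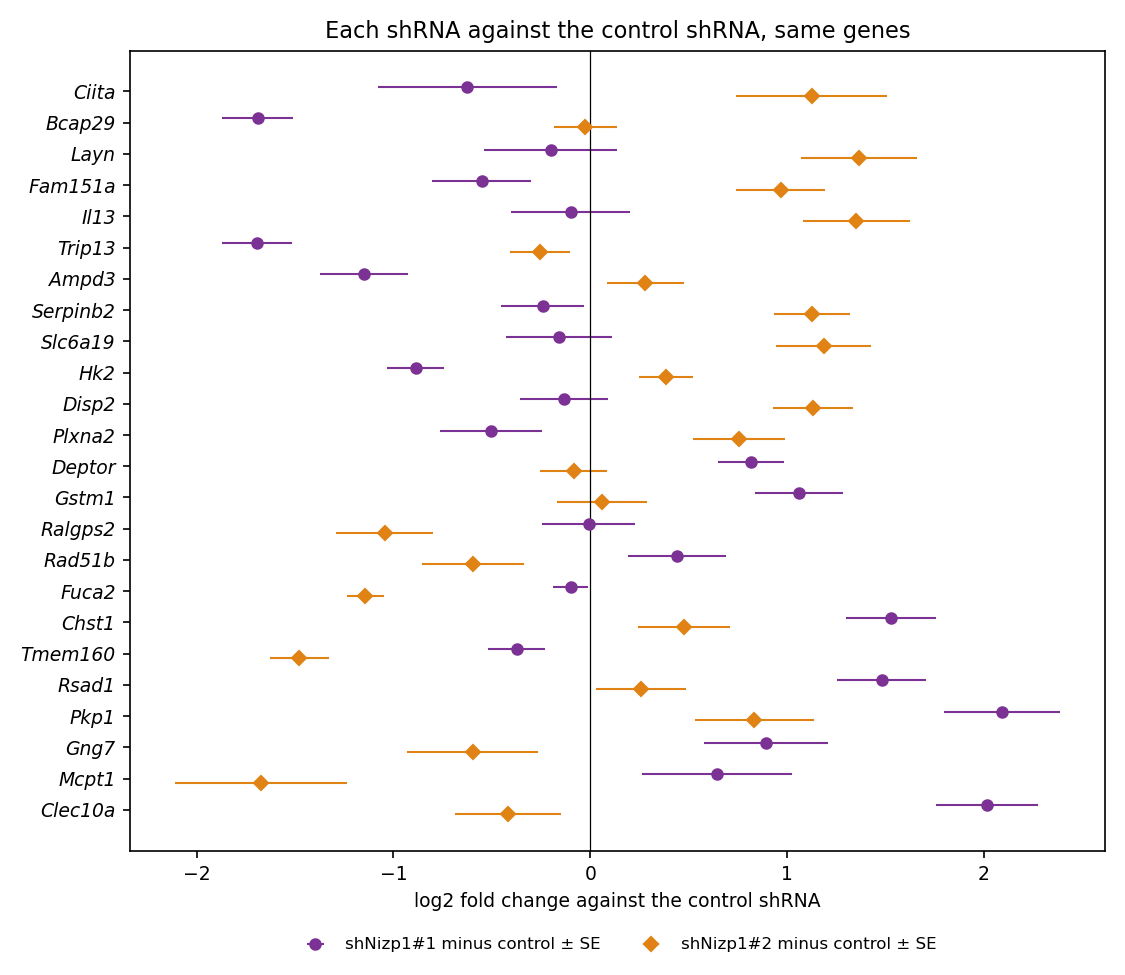
Log2 fold change against the control shRNA (x axis) for shNizp1#1 (circles) and shNizp1#2 (diamonds), each with its SE, for the same 24 genes (y axis). Both shRNAs are compared with the same 3 control libraries. For Bcap29 and Trip13 the circle lies far below 0 and the diamond near it, and for Fuca2 the diamond lies below 0 and the circle near it.

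Neutrophil genes had fitted changes above 0 throughout, in data from the 2 experiments where they were well expressed, but few passed the test. Of 25 tested neutrophil granule and maturation genes, 4 were called higher and 0 lower, beside 1.78% and 0.584% of all tested genes. All 25 had a fitted change above 0, beside 5964 of the 11994 tested genes. The median was 0.96, beside -0.0019 for all tested genes. The summed level of the list was 452, 1210.1 and 249 CPM with shNizp1#1, 639.8, 2190.1 and 285 CPM with shNizp1#2 and 602, 1892 and 189 CPM with the control. In experiment 3, 17 of the 25 genes had under 3 counts in both libraries and 12 had none. The median log2 ratio was 0.49 in experiment 1, 1.05 in experiment 2 and 0 in experiment 3, where 6 of the 25 ratios were above 0. The higher sum with shNizp1#2 in experiment 3 does not stand for the list. The single member Adam8 was at 61.7 CPM with shNizp1#1 and 97.9 CPM with shNizp1#2 there. The called members were Camp, cathelicidin (1.19, adjusted p = 0.0473), Lcn2, the siderophore-binding lipocalin (1.10, adjusted p = 0.0406), Ngp, a neutrophilic granule protein (0.96, adjusted p = 0.0491), and Adam8, a surface protease (0.94, adjusted p = 0.0181). Leaving out a library or an experiment left 0 to 2 called members. In bulk RNA, fewer cells of a type and less RNA per cell cannot be told apart.

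Ngp stood at 22.1, 112 and 0.278 CPM with shNizp1#1, 45.7, 212 and 0 CPM with shNizp1#2 and 72.7, 301 and 0.196 CPM with the control. Lcn2 was at 10.7, 26.8 and 0 CPM, 16.3, 74.2 and 0 CPM and 18.8, 58.7 and 0.392 CPM in the same order. For both genes the spread between experiments was wider than the difference between the shRNAs. Adam8 was the exception in experiment 3, where it was expressed like in experiment 1, at 48.3, 117 and 61.7 CPM with shNizp1#1 and 109.6, 237 and 97.9 CPM with shNizp1#2.

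S100a8 (mm10, chr3:90668978-90670035, plus strand) and S100a9 encode the subunits of calprotectin, an abundant neutrophil protein. S100a8 was at 37.8, 118 and 0.139 CPM with shNizp1#1, 71.8, 252 and 0 CPM with shNizp1#2 and 89.6, 306 and 0 CPM with the control, so experiment 3 held almost none of it. The log2 fold change was 1.01 ± 0.16 between the shRNAs (adjusted p = 0.00387), -1.31 for shNizp1#1 against the control (adjusted p = 0.00162) and -0.30 for shNizp1#2 (adjusted p = 0.48). S100a9 was at 52.8, 232 and 0.278 CPM with shNizp1#1 and 98.5, 403 and 0.44 CPM with shNizp1#2 (0.84, adjusted p = 0.0172). The groups overlapped for both genes, and experiments 1 and 2 differed more than the shRNAs did. S100a6, the calcium-binding protein calcyclin, was present in all experiments, at 289, 245 and 140.1 CPM with shNizp1#1, 399.7, 434 and 271 CPM with shNizp1#2 and 266, 235 and 119.9 CPM with the control (0.75, adjusted p = 0.00304). These were the 3 called of 8 tested S100 genes, all higher, beside 1.78% of all tested genes called higher. Leaving out a library or an experiment left 1 to 3. Epx, eosinophil peroxidase, had 1, 6 and 0 counts with shNizp1#1 and 26, 59 and 0 with shNizp1#2 (3.0 ± 0.61, adjusted p = 0.0176). No other of 10 tested eosinophil and basophil genes was called. The part of neutrophil or eosinophil RNA in the differences between the shRNAs was not tested.

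The region upstream of the called neutrophil genes was searched for the letters of a C/EBP element, TTGCNNAA or its reverse complement TTNNGCAA, since C/EBP proteins activate granule genes in maturing granulocytes. In the 250 bases before the start, 8 of 22 list members with a RefSeq promoter held a match (8 of 23 windows, 34.8%), against 7.68% of 11763 windows of tested genes. Camp had none. Shown are the windows of the called genes that held one, 5′ to 3′ on the gene's strand, with the match in capitals, from RefSeq (GRCm38.p6). A match is a description of the letters only, and any part of it in the difference between the shRNAs was not tested.
Lcn2, chr2:32387740-32387989: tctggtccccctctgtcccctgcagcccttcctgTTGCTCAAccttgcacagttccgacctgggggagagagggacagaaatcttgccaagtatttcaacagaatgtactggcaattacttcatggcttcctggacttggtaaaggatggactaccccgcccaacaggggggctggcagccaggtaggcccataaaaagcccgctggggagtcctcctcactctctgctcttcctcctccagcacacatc
Ngp, chr9:110419558-110419807: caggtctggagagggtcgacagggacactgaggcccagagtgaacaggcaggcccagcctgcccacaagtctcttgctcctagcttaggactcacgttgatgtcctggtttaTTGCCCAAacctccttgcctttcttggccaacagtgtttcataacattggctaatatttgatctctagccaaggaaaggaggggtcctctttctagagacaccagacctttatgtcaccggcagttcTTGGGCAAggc
Adam8, chr7:139992563-139992812: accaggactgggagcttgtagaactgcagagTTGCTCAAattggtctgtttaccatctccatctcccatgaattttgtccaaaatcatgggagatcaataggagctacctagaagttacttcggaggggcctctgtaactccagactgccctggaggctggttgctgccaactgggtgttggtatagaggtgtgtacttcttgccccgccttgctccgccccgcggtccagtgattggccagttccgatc

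**Figure D5:**
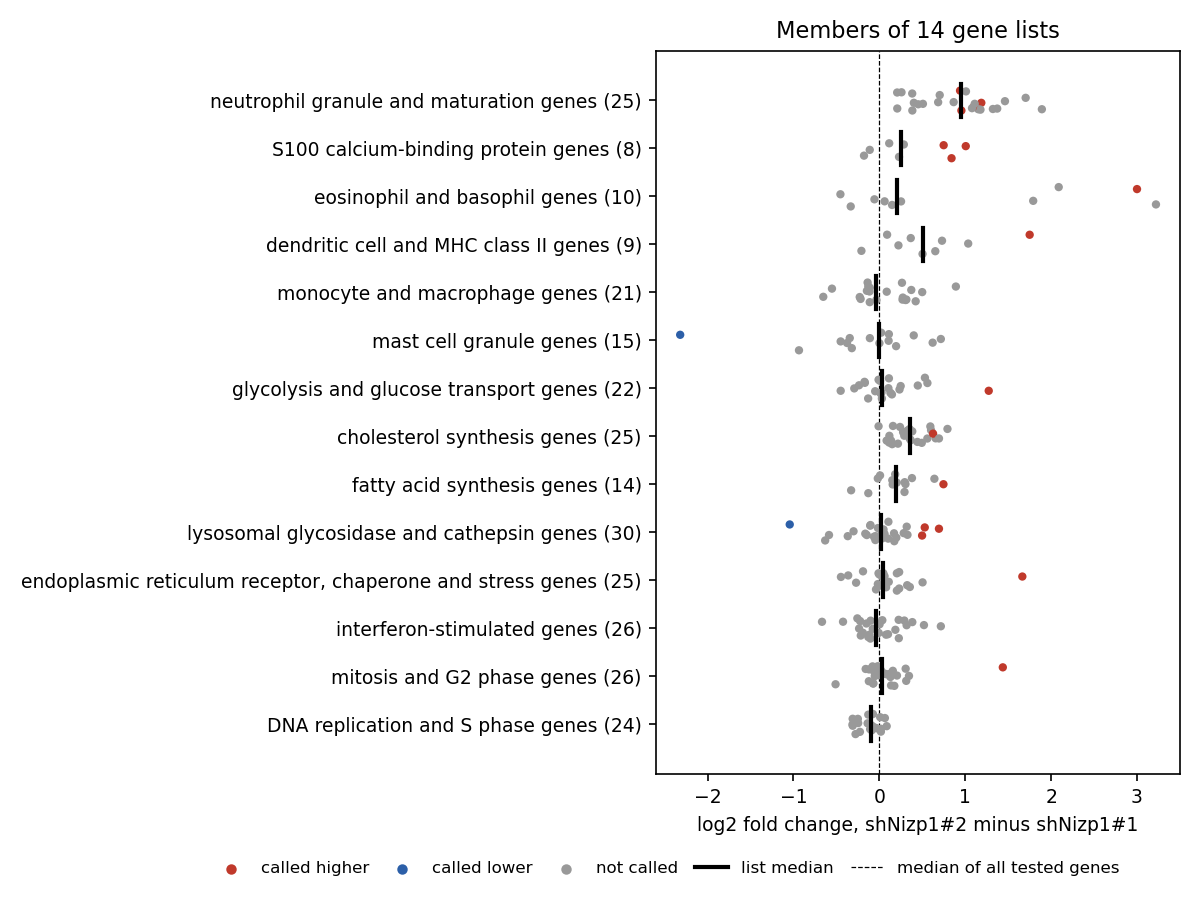
Log2 fold change, shNizp1#2 minus shNizp1#1 (x axis), of each tested member of 14 gene lists (y axis, number tested in brackets), with called genes in red (higher) or blue (lower), list medians as black bars and the median of all tested genes dashed. All 25 neutrophil genes and 24 of 25 cholesterol synthesis genes lie above 0, though few were called.

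Cholesterol synthesis genes had small fitted changes, nearly all in 1 direction. Of 25 tested members, 24 had a fitted change above 0, beside 5964 of the 11994 tested genes. The list had a median of 0.35, and only Sc5d, a sterol desaturase, was called. Sc5d was at 68.5, 32.7 and 41 CPM with shNizp1#1, 93.1, 52.4 and 70.1 CPM with shNizp1#2 and 76.9, 49.4 and 72.8 CPM with the control (0.63 ± 0.12, adjusted p = 0.0118). The list medians were 0.09, 0.44 and 0.65 in experiments 1, 2 and 3. The summed level was 4542, 2436 and 2805 CPM with shNizp1#1, 4749, 2812 and 4113 CPM with shNizp1#2 and 4337, 3465 and 4353 CPM with the control. Leaving out the shNizp1#1 library of experiment 1 raised the number called to 5, while it was 0 without the shNizp1#1 library of experiment 3 or any shNizp1#2 library. The 250 bases before the start were also searched for a sterol regulatory element, TCACNCCAC or its reverse complement GTGGNGTGA. Of 17 members with a RefSeq promoter 1 held a match (1 of 20 windows, 5%), against 1.06% of 11763 windows of tested genes. It was Hmgcs1, with a log2 fold change of 0.08. Among 14 fatty acid synthesis genes only Elovl6, a fatty acid elongase, was called (0.75, adjusted p = 0.0235), at 14.5, 11.7 and 22.5 CPM and 22.2, 20.3 and 40.2 CPM.

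Spred1, an inhibitor of the RAS pathway, was the only called gene of 17 in a list of signalling feedback and PIM kinase genes (0.52, adjusted p = 0.0191). Car2, carbonic anhydrase 2, was at 16.2, 15.3 and 23.5 CPM with shNizp1#1 and 39.96, 37.1 and 39.3 CPM with shNizp1#2 (1.08, adjusted p = 0.00895) and was 1 of only 2 erythroid genes tested. In 25 of the 45 gene lists edgeR called no member. They include the Hox and TALE factors, H3K36 methylation genes, stem cell genes, mast cell and granulocyte-macrophage transcription factors, histones and Polycomb genes. Together they hold 328 tested genes, of which 45 had an unadjusted p under 0.05, 7 were called by DESeq2 and 0 by limma-voom.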

How the data were processed

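The deposited table holds raw read counts for each gene, with exonic length and coordinates (mm10). Per the labels' protocols, stranded poly(A) libraries from 1 µg of RNA were read as single 75 nt reads. Per the submitters' processing notes, Trimmomatic 0.32, STAR 2.5.3a and featureCounts were used. How featureCounts treated strand and reads from near-identical copies is not given in the sources used here, so values of genes with close copies or pseudogenes (Mcpt1, Gstm1, Fth1, Ywhaz) and of overlapping antisense genes are uncertain. Of 55376 genes 31694 had no count.

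The counts of all 12 libraries in 4 groups were fitted with edgeR 4.0.16 (R 4.3.3, robust quasi-likelihood F test, filterByExpr on groups, TMM, 11994 genes tested, 6 residual degrees of freedom), with the replicate number as a block and Benjamini-Hochberg adjustment over all tested genes (threshold 0.05). The pairing comes from the series' design text, which speaks of independent experiments, and from residuals: 18 same-numbered pairs correlated at 0.20 to 0.87 (median 0.74), other pairs at a median of -0.18, and all 12 libraries correlated best with their own number. That the numbers mark the experiments is an inference. Animals are not named, so the p-values reflect only how far the libraries spread, which may be technical. No replicates agreed within sampling noise. In simulated data for this contrast (11831 genes) the test recovered 94% of 2-fold and 100% of 4-fold changes, with 9 unchanged genes called. The simulated spread followed the level of a gene and not each gene's own spread. Changes were placed only in genes with a mean of at least 5 CPM. These shares therefore do not give the recovery or the false calls in the real data, where genes vary in spread. Log2 ratios within an experiment used a prior count of 2. Limits of 3 counts cover counting error only.

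Genes named were Zkscan17, Nup98, Nsd1, Hk2, Bcap29, Fuca2, Clec10a and S100a8, the 12 called genes with the largest change in each direction (at least 5 CPM in the higher group, same direction in 3 experiments, no predicted or clone name) and up to 4 called members of each of 45 lists. Where a list had no called member, its 2 most abundant genes were to be named, and these are left out for brevity. The members and lists were chosen with earlier results of these data known. Alternatives were other scalings, filters, tools (DESeq2 1.42.0, limma 3.58.1), a fit without the block, the 6 libraries alone, thinning, and leaving out libraries or experiments. Promoter windows came from RefSeq (GRCm38.p6).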

Additional observations from a re-analysis of the deposited data

How the results depend on the processing

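Without the replicate block 0 genes were higher, 1 was lower (Fuca2) and 1 changed at least 2-fold, beside 214, 70 and 43 with it. With the 6 libraries alone 711 were higher, 439 lower and 88 changed at least 2-fold. With no filter on low counts (23682 genes) the counts were 437, 189 and 90. Leaving out 1 library or 1 whole experiment gave 10 to 129 higher, 2 to 38 lower and 6 to 33 genes with at least a 2-fold change. The cause of these differences was not tested, except that fits with a library left out hold fewer samples. RLE or upper-quartile scaling, the filter of 1 CPM in every library, DESeq2, limma-voom, the test without robust estimation and thinning to the lowest total each gave counts within 1.5 times those above with the replicate block. Of the 284 calls DESeq2 kept 264, limma-voom 279 and upper-quartile scaling 254. The fold change of Zkscan17 ran from -0.40 to -0.22 over the alternatives and was not called in any (adjusted p from 0.137 to 1.00). Of 61 called genes named in the text, Bcl2l13 not counted, 19 kept their call without each of the 6 libraries. Another 8 (Ciita, Gng7, Ralgps2, Camp, Lcn2, Ctsc, Slc48a1 and Sod1) lost it whichever library was left out. With 3 libraries a group and totals from 3586538 counts, small changes in genes of low level were not detectable.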

Other observations

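Several genes of glutathione synthesis and of haem and iron handling were higher with shNizp1#1 than with shNizp1#2. They were grouped after their values were seen, together with other textbook genes of these functions, and their count supports nothing by itself. Of 17 tested genes 7 were called lower with shNizp1#2 and 0 higher, beside 0.584% of all tested genes called lower. The median log2 fold change was -0.28, beside -0.0019 for all tested genes. Fth1, the ferritin heavy chain, was at 2486, 2954 and 3147 CPM with shNizp1#1, 1751, 2017 and 1769 CPM with shNizp1#2 and 2042, 1895 and 1792 CPM with the control shRNA (-0.63 ± 0.12, edgeR adjusted p = 0.0118). The 3 shNizp1#1 libraries lay above the other 6 with NUP98-NSD1. Hmox1, haem oxygenase 1, was at 96.1, 88.5 and 99.3 CPM with shNizp1#1 and 49.1, 70.3 and 43.9 CPM with shNizp1#2 (-0.81, adjusted p = 0.0176), beside 60.7, 57.8 and 56.1 CPM with the control. Gclm and Gclc encode the subunits of the enzyme that begins glutathione synthesis. Gclm was at 115, 57.2 and 225 CPM with shNizp1#1 and 56.3, 46.5 and 116 CPM with shNizp1#2 (-0.78, adjusted p = 0.00437), and Gclc at 100.4, 65.9 and 101 CPM and 62.1, 53.9 and 67.8 CPM (-0.53, adjusted p = 0.0235). The other called members were Gstm1, the haem transporter gene Slc48a1 (-0.39) and Sod1, superoxide dismutase (-0.36). Not called were the ferritin light chain gene Ftl1 (adjusted p = 0.11), Nqo1 (adjusted p = 0.22) and Txnrd1 (adjusted p = 0.347). Nfe2l2, the transcription factor that activates many of these genes, was not called either (119, 157 and 117 CPM and 122, 153 and 118 CPM, adjusted p = 0.999). The same held for Slc7a11 (0.34), Srxn1 (-0.28), Cat (-0.22), Gsr (-0.21), Keap1 (-0.05) and Prdx1 (-0.01). In all, 15 of the 17 fitted changes were below 0 and 2 above. The calls of Slc48a1 and Sod1 were lost when any library was left out.

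Several genes of the stress-activated MAP kinases, also grouped after their values were seen, differed the other way. Of 13 tested genes 6 were called higher with shNizp1#2 and 0 lower, beside 1.78% of all tested genes called higher. As the genes were picked with these results known, their count supports nothing by itself. Mapk14, the kinase p38 alpha, was at 109, 113 and 101 CPM with shNizp1#1, 172, 174 and 173 CPM with shNizp1#2 and 166, 177 and 161 CPM with the control. No library of shNizp1#1 reached the level of the others, and the difference between the shRNAs was 0.69 ± 0.09 (adjusted p = 0.0012). Mapk8, the kinase JNK1, was at 9.99, 10.9 and 8.61 CPM with shNizp1#1, 23, 21.5 and 17.3 CPM with shNizp1#2 and 20.1, 24 and 18.6 CPM with the control (1.06, adjusted p = 0.00591). Map2k4, which activates JNK and p38, was at 96.6, 84.8 and 67.1 CPM, 143, 142 and 99 CPM and 137, 139.8 and 94.2 CPM (0.62, adjusted p = 0.00342). The phosphatase genes Dusp10 (1.07, adjusted p = 0.00644) and Dusp16 (1.18, adjusted p = 0.00623), whose products inactivate these kinases, were higher with shNizp1#2 as well, as was the kinase gene Map3k2 (0.65, adjusted p = 0.00644). Mapk9, Map2k3, Map2k7 and Map3k7 were not called (adjusted p = 0.975, 0.393, 0.854 and 0.603). Nor were Map2k6 (-0.35, adjusted p = 0.696), Map3k5 (0.03, adjusted p = 0.947) and Dusp8 (2.68 on few counts, adjusted p = 0.0938).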
